A study of Mus musculus with 12 samples.

Results

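The transcripts described here code for the nuclear-encoded subunits of the mitochondrial respiratory chain and of ATP synthase. They were chosen by symbol from a deposited gene count table: symbols that begin with Ndufa, Ndufb, Ndufc, Ndufs, Ndufv, Uqcr, Cox4i, Cox5, Cox6, Cox7, Cox8 or Atp5, together with Sdha, Sdhb, Sdhc, Sdhd, Cyc1 and Cycs, and without the Ndufaf assembly factors. The rule gave 87 of 23366 genes: 38 for complex I, 4 for complex II, 9 for complex III, 1 for cytochrome c, 18 for complex IV and 17 for complex V. RNA-seq had been made from mouse embryonic fibroblasts (MEFs), primary cells grown out of embryos, of strain C57BL/6 at passages 3 to 5, in 4 groups of 2 libraries. Carm1 KO starved cells, which lack the histone arginine methyltransferase CARM1, had spent 18 h in glucose-free DMEM with 10% dialyzed serum, and Carm1 KO rich cells had stayed in DMEM with 10% FBS, labelled 0 h. The wildtype (WT) starved and WT rich cells had been treated the same way. The labels do not say how the deletion was made, how many embryos or cultures gave the cells of each genotype, or whether the 2 libraries of a group came from separate cultures. The p-values therefore measure the spread between libraries, which may be technical, and whatever else differs between the cells of the 2 genotypes cannot be told apart from Carm1.

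Complex I takes electrons from NADH and complex II from succinate. Both pass them through coenzyme Q to complex III, and cytochrome c carries them on to complex IV, which reduces oxygen. Complexes I, III and IV pump protons across the inner membrane, and ATP synthase, or complex V, lets them flow back to make ATP. Complexes I, III, IV and V also hold subunits that mitochondrial DNA encodes, so their assembly needs both genomes. Cells without glucose lose most of the ATP of glycolysis and depend on this chain.

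The symbol rule carries some older names. Atp5f1 is Atp5pb in the RefSeq tables. Atp5sl and Atp5s are Dmac2 and Dmac2l there, distal membrane arm assembly proteins and not subunits of ATP synthase. Ndufa4 is now counted as a subunit of complex IV and not of complex I, and Cox7a2l is the factor that joins complexes III and IV into supercomplexes. All 4 are reported under the complex that their symbol in the files gives. A filter on low counts left 81 members for testing among 13882 genes. The other 6 (Cox4i2, Cox6b2, Cox7b2, Cox8b, Cox8c and Ndufa4l2) are tissue-restricted or stress isoforms, and none had more than 10 counts in a library. Of the 87, 27 overlap another annotated gene, among them Atp5j with Gabpa, Cox6a2 with Itgad and Uqcrh with Gm12854, and their reads could be shared where counting ignored strand.

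Library totals ran between 8447016 counts in KO rich replicate 1 and 28155438 in WT starved replicate 2, and the members took 0.558% to 0.856% of them. Carm1 was at 53.9 and 58.6 CPM, or counts scaled to library size, in KO starved, 48.1 and 70.8 CPM in KO rich, 175.5 and 164.2 CPM in WT starved and 207.2 and 204.2 CPM in WT rich libraries. Its counts were lower in every KO library but not absent, and which exons were deleted is not given in the labels. The 10 fibroblast markers summed to 7099 to 9603 CPM in KO and 5231 to 8330.0 CPM in WT libraries, mostly from Vim and the collagens, and Lum was at 0 in all 4 WT libraries. The 2 KO rich libraries stood apart from each other, and replicate 1 had the lowest total of the 8. Of 9124 genes with at least 10 CPM, 17.3% differed more than 2-fold between the 2 KO rich libraries, against 0.011% to 0.0223% in the other 3 groups. Xist, the RNA of the inactive X chromosome, had 0 to 6 counts in KO and 18657 to 23751 counts in WT libraries, so Carm1 status and the sex of the cells cannot be told apart.

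The core promoters of 6 members are shown because these genes frame the results: Cox7b, Uqcrh, Ndufb4 and Atp5g3 had low transcript levels in starved WT cells, Sdhd was low in WT starved libraries without passing the test, and Cox7a2l was high. RefSeq gave promoter windows for 71 of the 87 members on mouse build GRCm38.p6, which is not the mm9 build of the counts. The 77 windows span 300 bases, 250 before and 50 after the transcript start. The 250 bases before the start are printed on the strand of the gene, and capitals mark every match, on either strand, to 1 of 5 motifs: GCGCA, any base and GCGC for nuclear respiratory factor NRF1, CCGGAAG for the ETS family that includes GABPA, TCAAGGTCA for the ERR family, AAGATGGCG for YY1 and TGATGNAA for C/EBP-ATF composite sites. The windows are Cox7b at chrX:106015450-106015699 (+), Uqcrh at chr4:116075071-116075320 (-), Ndufb4 at chr16:37654369-37654618 (-), Atp5g3 at chr2:73911327-73911576 (-), Sdhd at chr9:50603850-50604099 (-) and Cox7a2l at chr17:83514334-83514583 (-).
Cox7b: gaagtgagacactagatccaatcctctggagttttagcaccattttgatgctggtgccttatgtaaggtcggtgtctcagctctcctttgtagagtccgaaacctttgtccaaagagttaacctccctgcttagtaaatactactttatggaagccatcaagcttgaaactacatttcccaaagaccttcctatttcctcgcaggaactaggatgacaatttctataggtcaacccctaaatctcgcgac
Uqcrh: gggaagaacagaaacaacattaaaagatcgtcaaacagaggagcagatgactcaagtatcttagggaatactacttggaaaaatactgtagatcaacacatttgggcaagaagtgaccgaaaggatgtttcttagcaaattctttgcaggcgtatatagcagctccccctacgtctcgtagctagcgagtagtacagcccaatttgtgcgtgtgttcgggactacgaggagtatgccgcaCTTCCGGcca
Ndufb4: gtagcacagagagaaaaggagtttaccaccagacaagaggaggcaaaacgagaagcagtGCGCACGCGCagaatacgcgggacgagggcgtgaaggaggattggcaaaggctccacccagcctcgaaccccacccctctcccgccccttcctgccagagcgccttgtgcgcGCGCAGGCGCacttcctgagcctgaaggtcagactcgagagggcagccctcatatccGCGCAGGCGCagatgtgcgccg
Atp5g3: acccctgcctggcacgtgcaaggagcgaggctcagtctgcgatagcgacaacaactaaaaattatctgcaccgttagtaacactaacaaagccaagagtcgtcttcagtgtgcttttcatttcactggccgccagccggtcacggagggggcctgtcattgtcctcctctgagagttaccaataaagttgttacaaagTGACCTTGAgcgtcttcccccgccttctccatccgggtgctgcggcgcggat
Sdhd: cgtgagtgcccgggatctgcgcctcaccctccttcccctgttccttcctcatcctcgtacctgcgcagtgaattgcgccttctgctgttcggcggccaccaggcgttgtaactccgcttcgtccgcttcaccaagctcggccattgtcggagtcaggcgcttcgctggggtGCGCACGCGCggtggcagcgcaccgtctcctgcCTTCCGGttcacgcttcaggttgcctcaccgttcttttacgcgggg
Cox7a2l: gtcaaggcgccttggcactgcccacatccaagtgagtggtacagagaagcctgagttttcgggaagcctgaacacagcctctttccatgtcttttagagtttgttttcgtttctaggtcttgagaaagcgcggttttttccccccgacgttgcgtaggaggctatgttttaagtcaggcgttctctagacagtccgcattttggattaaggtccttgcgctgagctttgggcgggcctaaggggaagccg

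The Ndufb4 promoter held 3 NRF1 letter matches, at 191, 79 and 22 bases before the start. Sdhd held 1 NRF1 match and 1 ETS match, Uqcrh 1 ETS match just before the start, and Atp5g3 1 ERR match here while over the full windows Atp5g3 also held an NRF1 match and Sdhd an ERR match. The stretches of Cox7b and Cox7a2l held no match to any of the 5 motifs. Over all member windows the NRF1 letters occurred in 23.4%, against 6.38% of the 21263 windows of protein-coding genes and 4.6% of all 32851 windows. The ETS letters were in 20.8% of member windows, against 11.6% of protein-coding and 8.86% of all windows. YY1 letters were in 11.7%, against 1.83% and 1.4%, ERR letters in 2.6%, against 0.334% and 0.423%, and the C/EBP-ATF letters in 0%, against 3.6% and 3.97%. All 14 members that fell in starved WT cells had a window, of which 4 held an NRF1 match and 4 an ETS match. These are matches of letters and show no binding.

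Levels were first summed over the members of each complex. Complex I summed to 1739 ± 22.4 CPM in KO starved and 1570 ± 280.0 CPM in KO rich cells, and to 1995 ± 147 CPM in WT starved and 1910 ± 9.80 CPM in WT rich cells (SD, n = 2 libraries each). Complex V summed to 3345 ± 31.7 CPM in KO starved, 3025 ± 521 CPM in KO rich, 3500 ± 160.2 CPM in WT starved and 3813 ± 70.0 CPM in WT rich cells. In KO cells the starved and rich means of both complexes lay closer together than the spread between the 2 KO rich libraries.

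Complex II was the complex with the lowest sum in KO relative to WT cells. In the fit of all 8 libraries, Sdha was the only complex II member lower in KO cells by edgeR adjusted p under 0.05, in either medium. It had means of 140 CPM in KO starved and 293 CPM in WT starved cells, and Sdhb of 85.9 and 82.7 CPM. Sdhc was at 31.6 and 34.3 CPM in KO starved and 36.9 and 42.0 CPM in WT starved libraries. Sdhd was at 28.6 and 31.6 CPM in KO starved and 42.5 and 50.2 CPM in WT starved libraries. The groups of Sdhc and Sdhd did not overlap, but neither gene passed the test in that fit, which also takes in the KO rich libraries. Complex II summed to 289 ± 0.769 CPM in KO starved and 461 ± 10.5 CPM in WT starved cells, a ratio of 0.627. In rich medium it summed to 320.0 ± 37.6 CPM in KO and 519.5 ± 1.94 CPM in WT cells, a ratio of 0.616. Cytochrome c, from the single gene Cycs, went the other way, with 201 ± 1.23 CPM in KO starved and 104 ± 3.75 CPM in WT starved cells, a ratio of 1.93. In bulk RNA a smaller share of cells that express a gene and less RNA per cell cannot be told apart.

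**Figure D1:**
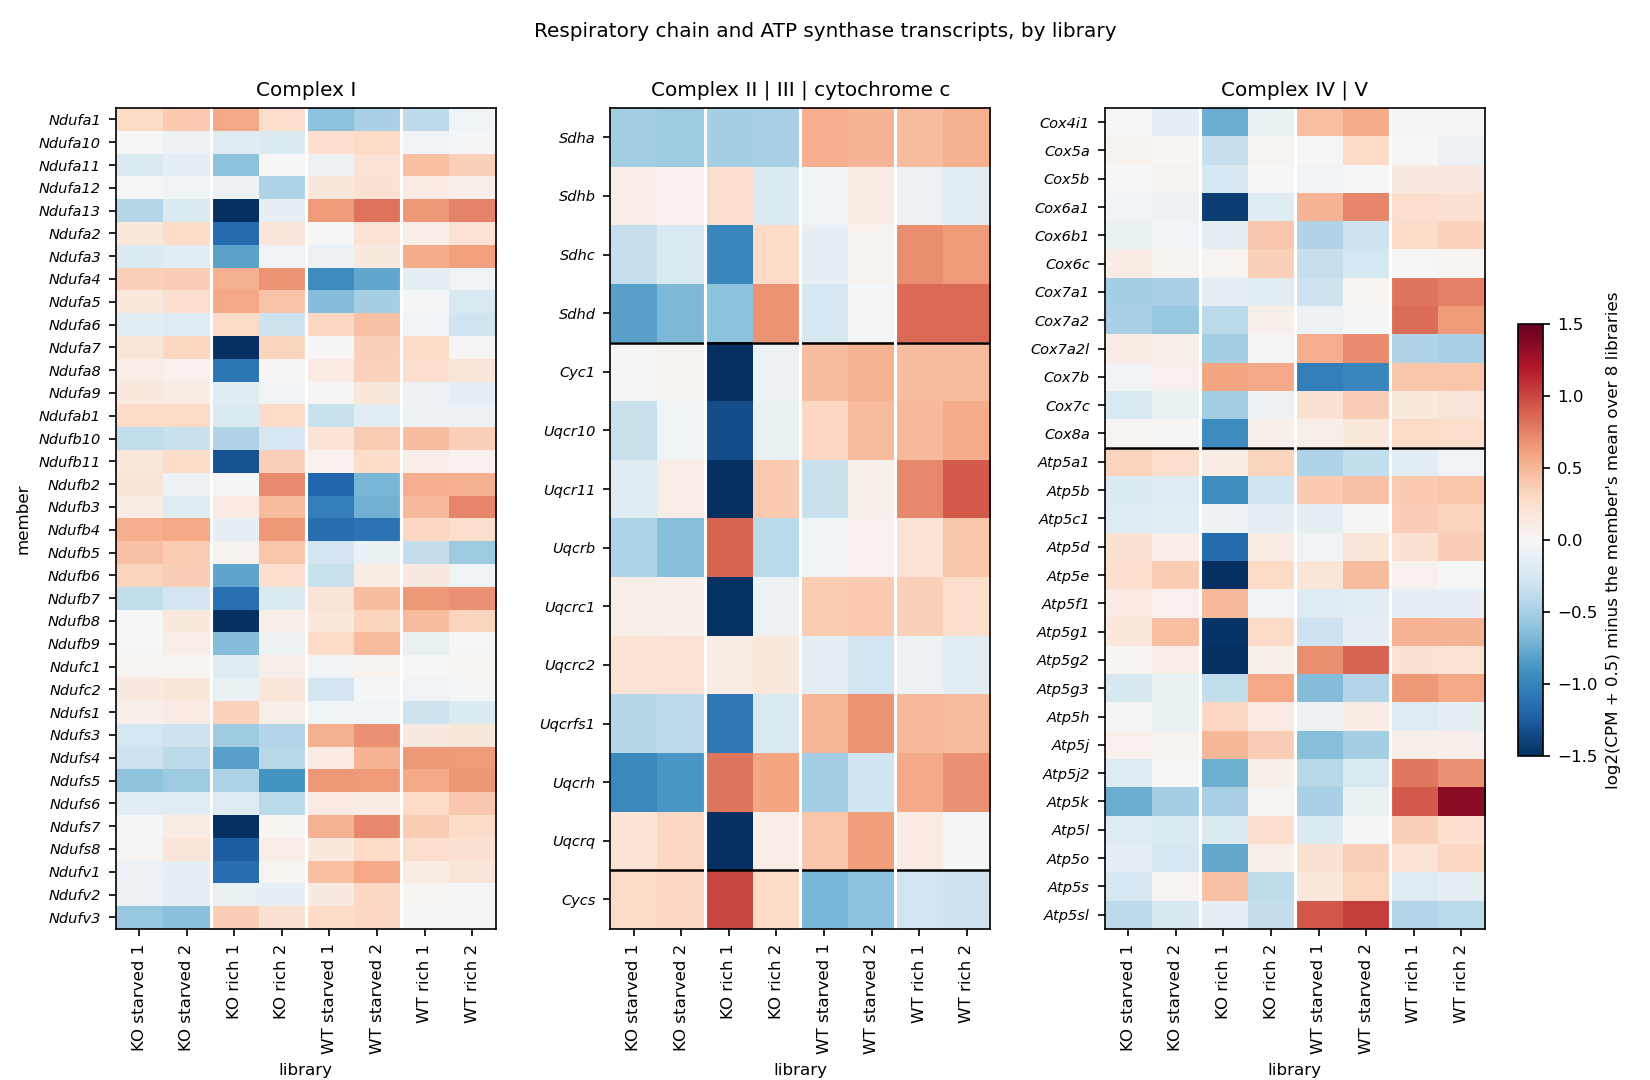
Rows are tested members and columns are libraries. The colour is log2(CPM + 0.5) minus the member's mean over the 8 libraries, clipped at 1.5 either way. Cox6a2 is left out because WT rich libraries had 0 counts. Sdha is low in all 4 KO libraries, Cox7b, Ndufb2, Ndufb3 and Ndufb4 are low in both WT starved libraries, and KO rich replicate 1 is low for many members.

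The first question was what 18 h without glucose did to these transcripts in WT cells. Of the 81 members tested, 4 rose and 14 fell (edgeR quasi-likelihood test, Benjamini-Hochberg adjusted p under 0.05), against 14.8% of all genes tested that rose and 18% that fell. The median log2 fold change over the members was -0.06, and 0 over all genes. The falls were spread over 4 complexes: 4 in complex I, 1 in complex III, 4 in complex IV and 5 in complex V, with none in complex II. Atp5b, Ndufs1 and Uqcrc1 did not pass the test. WT starved and WT rich libraries had 1548 and 1603 against 1550.0 and 1569 CPM of Atp5b, the catalytic beta subunit of ATP synthase.

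Cox7b, a small X-linked subunit of complex IV, was at 25.9 and 26.9 CPM in WT starved libraries and at 71.4 and 71.5 CPM in WT rich libraries. The groups lay far apart and the replicates close together. Its log2 fold change was -1.44 ± 0.12 (SE), with an adjusted p of 0.000452 by edgeR's quasi-likelihood test. Uqcrh, the acidic hinge protein of complex III that bridges cytochrome c1 and cytochrome c, was at 40.4 and 47.1 CPM in WT starved and 86.4 and 93.4 CPM in WT rich libraries. It fell by 1.04 ± 0.15 on the log2 scale (edgeR adjusted p = 0.00243), and its groups did not overlap.

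The 4 members that fell under complex I symbols were Ndufb2, Ndufb3, Ndufb4 and Ndufa4. Ndufb3 was at 8.37 and 10.5 CPM in WT starved and 24.99 and 29.6 CPM in WT rich libraries, a log2 fold change of -1.53 ± 0.22 (edgeR adjusted p = 0.00262). Ndufb4 was at 10.7 and 10.9 CPM in WT starved and 30.1 and 29.0 CPM in WT rich libraries, a log2 fold change of -1.45 ± 0.25 (edgeR adjusted p = 0.00525). Ndufb2 was at 2.47 and 3.74 CPM in WT starved and 9.38 and 9.34 CPM in WT rich libraries, a log2 fold change of -1.59 ± 0.32 (edgeR adjusted p = 0.00931). These 3 Ndufb genes code for accessory subunits, and for all 3 the groups did not overlap. Ndufa4, the subunit now placed in complex IV, was at 41.2 and 46.4 CPM in WT starved and 73.0 and 76.2 CPM in WT rich libraries, and fell by 0.77 ± 0.13. Ndufs3, a core subunit of the peripheral arm, was the single complex I member called higher in the fit of all 8 libraries. It had 48.5 and 54.0 CPM in WT starved and 36.5 and 37.6 CPM in WT rich libraries, a log2 fold change of 0.47 ± 0.14. That call held in 10 of 18 alternatives.

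In ATP synthase the 5 that fell sit in different sectors of the enzyme. Atp5k and Atp5j2 code for subunits e and f of the membrane sector, Atp5g3 for the c subunit of the rotor ring, Atp5j for coupling factor 6 of the stalk and Atp5c1 for the gamma subunit of the central shaft. Atp5k was at 10.8 and 14.3 CPM in WT starved and 29.4 and 40.1 CPM in WT rich libraries, and fell by 1.47 ± 0.26 (edgeR adjusted p = 0.00626). Atp5j2 fell by 1.07 ± 0.26, Atp5j by 0.65 ± 0.12 and Atp5c1 by 0.41 ± 0.12. The 3 genes for subunit c code for the same mature protein and moved unequally. Atp5g3 was at 49.0 and 57.2 CPM in WT starved and 121 and 116 CPM in WT rich libraries and fell by 1.16 ± 0.28 (edgeR adjusted p = 0.0197). Atp5g1 was at 34.7 and 39.2 CPM in WT starved and 62.3 and 62.0 CPM in WT rich libraries, and Atp5g2 at 188 and 213 CPM in WT starved and 135 and 133 CPM in WT rich libraries. Neither Atp5g1 nor Atp5g2 passed the test.

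The 4 members that rose in starved WT cells were 1 of complex I, 2 of complex IV and 1 of complex V by symbol. Cox7a2l, the supercomplex factor, was at 197 and 221 CPM in WT starved and 99.1 and 96.5 CPM in WT rich libraries, a log2 fold change of 1.10 ± 0.18 (edgeR adjusted p = 0.00484). Its relative Cox7a2, the subunit it resembles in complex IV, was at 31.4 and 32.9 CPM in WT starved and 59.8 and 52.3 CPM in WT rich libraries and fell by 0.80 ± 0.19. Atp5sl, the assembly protein DMAC2, was at 29.4 and 31.9 CPM in WT starved and 11.1 and 11.4 CPM in WT rich libraries, a log2 fold change of 1.45 ± 0.16 (edgeR adjusted p = 0.00112). Cox6a2, the heart and skeletal muscle isoform of a complex IV subunit, had 59 and 76 counts in WT starved libraries and 0 in both WT rich libraries. Against a floor of 3 counts over the group it was at least 41.3-fold higher.

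Among complex II members none passed the test in WT cells. Sdhd, a membrane anchor of succinate dehydrogenase, was at 42.5 and 50.2 CPM in WT starved and 91.9 and 91.5 CPM in WT rich libraries. Its groups did not overlap, with a log2 fold change of -0.98 ± 0.36 and an edgeR adjusted p of 0.0751. Sdhc, the other anchor, was at 36.9 and 42.0 CPM in WT starved and 65.5 and 63.1 CPM in WT rich libraries. Sdha, the flavoprotein, had 296 and 289 CPM in WT starved and 284 and 294 CPM in WT rich libraries, and these groups overlapped.

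**Figure D2:**
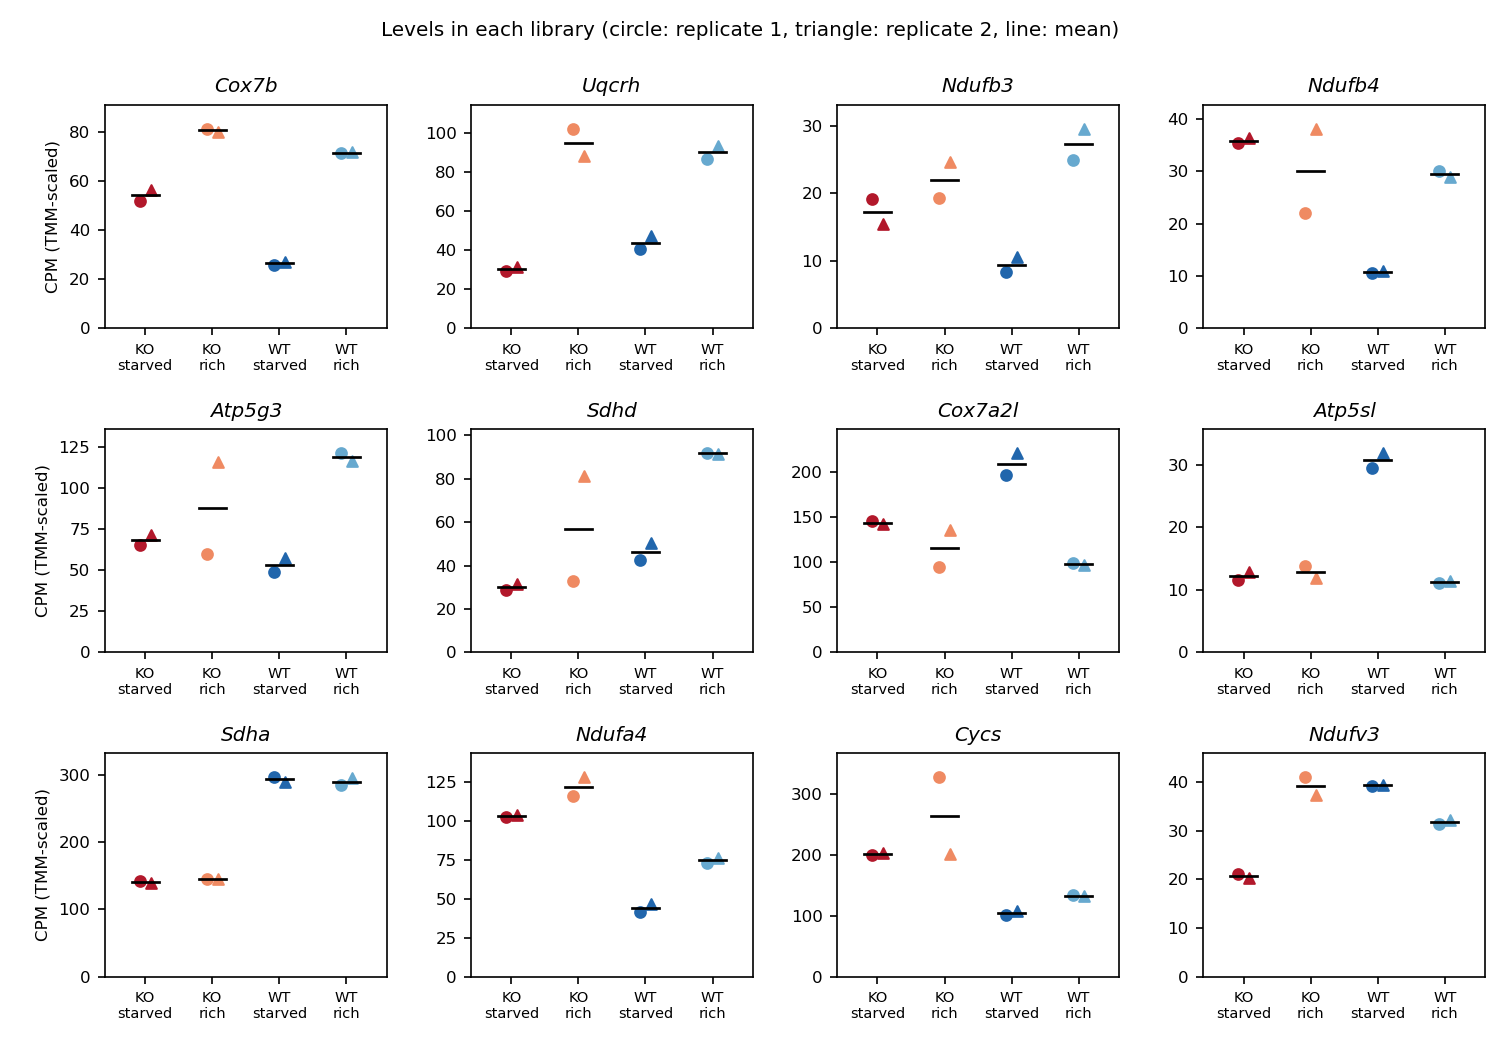
Levels of 12 members in CPM (y axis, from 0) in each library by group (x axis). Circles are replicate 1, triangles replicate 2 and lines group means. Cox7b, Ndufb3 and Ndufb4 are lowest in WT starved cells, Sdha is at 139 to 145 CPM in all KO libraries, and Ndufv3 is lowest in KO starved cells.

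Of these calls in WT cells, Cox7b, Uqcrh, Ndufb3 and Atp5sl held in all 18 alternative fits, with highest adjusted p of 0.0131, 0.0332, 0.0348 and 0.0219. The counts depended on single libraries. Leaving out 1 WT library lowered them among the members and over all genes. The median over the members was then 0.02 and -0.15 without WT starved replicates 1 and 2, against 0 and -0.02 over all genes. It was -0.05 and -0.08 without WT rich replicates 1 and 2, against 0 and 0. Without KO rich replicate 1, 23 rose and 33 fell, against 34.5% and 33.9% of all genes, and without KO rich replicate 2, 23 rose and 34 fell. Cycs, Sdhc and Sdhd were among the members called lower without KO rich replicate 1.

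In KO cells the same comparison gave fewer calls. Glucose starvation raised 1 member and lowered 3, against 8.44% and 9.78% of all genes tested. The median log2 fold change over the members was 0.15, and 0 over all genes. Uqcrh was at 29.5 and 31.6 CPM in KO starved and 102 and 87.9 CPM in KO rich libraries, a log2 fold change of -1.63 ± 0.15 (edgeR adjusted p = 0.00142). Cox7b was at 51.9 and 56.2 CPM in KO starved and 81.1 and 79.9 CPM in KO rich libraries, a log2 fold change of -0.57 ± 0.12 (edgeR adjusted p = 0.0194). For both genes the KO groups did not overlap. Ndufv3, an accessory subunit of the NADH-binding module with a tissue-dependent splice form, was at 21.2 and 20.4 CPM in KO starved and 41.1 and 37.4 CPM in KO rich libraries, a log2 fold change of -0.91 ± 0.14 (edgeR adjusted p = 0.00604). Its 2 deposited transcripts do not hold the same reads, and the lower had 55.9% of the counts of the higher.

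Cox6a2 was the member that rose in KO cells, with 120 and 74 counts in KO starved and 6 and 14 counts in KO rich libraries, or 4.81 and 3.18 against 0.738 and 0.649 CPM. Its log2 fold change was 2.55 ± 0.38 (edgeR adjusted p = 0.009), and the groups did not overlap. The call held in 14 of 17 alternatives. Among the fits that lost it was that without KO starved replicate 1, where the log2 fold change was 2.21. Cox6a2 is a muscle isoform, so the muscle markers are given beside it. The 7 muscle markers summed to 328 and 292 CPM in KO starved and 185 and 192 CPM in KO rich libraries, against 2.39 and 2.29 CPM in WT starved and 1.63 and 1.60 CPM in WT rich libraries. Nearly all of the KO sum was Tnnt2. Tnni3 was at 0 to 0.186 CPM in KO and 0.658 to 1.40 CPM in WT libraries, and the defining skeletal muscle markers Myog and Myl1 were at 0 in every library. Cox6a2 rose with starvation in WT cells, where that sum stayed low. The part of other cell types in its level was not tested.

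The KO counts rested on the 2 KO rich libraries. Without KO rich replicate 1 the KO response gave 3 members higher and 18 lower, against 24.5% and 26.6% of all genes, and its median was -0.02. Without KO rich replicate 2 the median over the members was 0.31, against 0.08 over all genes. Without KO starved replicate 1 or 2 it was 0.12, against 0 over all genes. Uqcrh was called lower in 17 of 18 alternatives, with a highest adjusted p of 0.0741. Its log2 fold change lay between -1.74 and -1.53 over them. The call of Cox7b held in 10 of 18 alternatives, with a log2 fold change between -0.63 and -0.54.

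**Figure D3:**
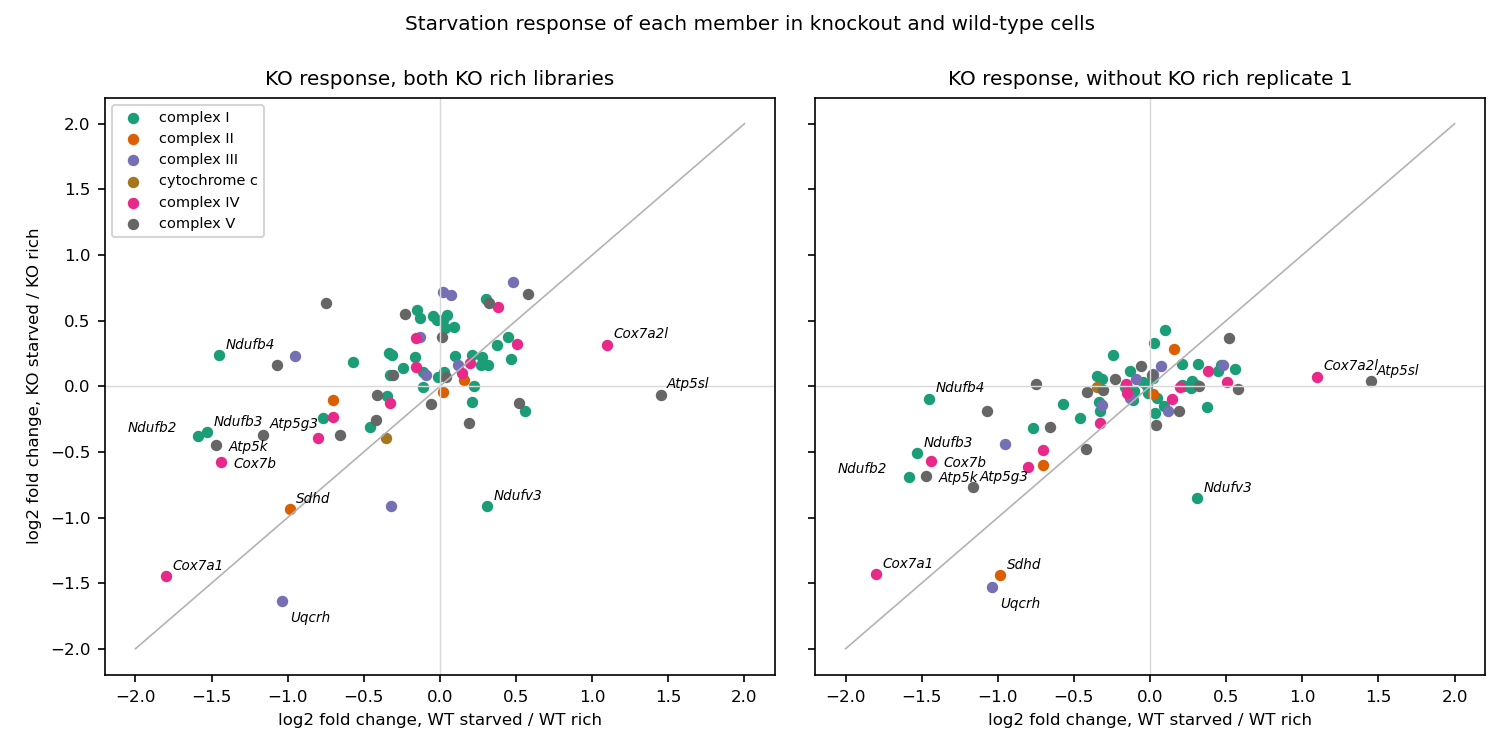
Starvation response of each member as log2 fold change, in KO cells (y axis) and WT cells (x axis), coloured by complex, with the KO response from both KO rich libraries (left) and without KO rich replicate 1 (right). The diagonal marks equal responses; Cox6a2 is left out because WT rich had 0 counts. Uqcrh, Cox7a1 and Sdhd lie low on both axes, and Ndufb3, Ndufb4 and Atp5sl lie away from the diagonal.

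The responses of the 2 genotypes share no library and can be set side by side. Over 80 members without Cox6a2 the fold changes in KO and WT cells correlated with Pearson's r = 0.507, and with 0.659 without KO rich replicate 1. Over all 13882 genes the values were 0.221 and 0.224. These are descriptions across genes, which share libraries and are not independent. Sdhd passed the test in neither genotype. It was at 28.6 and 31.6 CPM in KO starved and 33.0 and 81.0 CPM in KO rich libraries, with a log2 fold change of -0.94 ± 0.36 (edgeR adjusted p = 0.119). That value was -1.44 without KO rich replicate 1 and -0.13 without KO rich replicate 2.

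The test of the difference between the responses (KO minus WT, an interaction term) called 3 members higher and 3 lower, against 7.42% and 5.91% of all genes tested. Ndufb4 was at 35.4 and 36.3 CPM in KO starved and 22.1 and 38.1 CPM in KO rich libraries, which overlapped, while it fell in WT cells. The difference was 1.69 ± 0.35 on the log2 scale (edgeR adjusted p = 0.0218). Ndufb3 was at 19.1 and 15.5 CPM in KO starved and 19.3 and 24.6 CPM in KO rich libraries, and its response differed by 1.18 ± 0.30 (edgeR adjusted p = 0.0464). Cox7b fell in both genotypes and less in KO cells, by a difference of 0.86 ± 0.17 (edgeR adjusted p = 0.019).

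The 3 members with a more negative response in KO cells were Atp5sl, Ndufv3 and Cox6a2. Atp5sl was at 11.5 and 12.9 CPM in KO starved and 13.8 and 11.8 CPM in KO rich libraries, which overlapped, and its response differed by -1.51 ± 0.23 (edgeR adjusted p = 0.0082). Ndufv3 was at 39.3 and 39.5 CPM in WT starved and 31.4 and 32.1 CPM in WT rich libraries, the opposite order to the KO libraries. Its response differed by -1.23 ± 0.19 (edgeR adjusted p = 0.00848). That value lay between -1.29 and -0.62 over 17 alternatives, which include the other deposited transcript. For Cox6a2 the fitted difference depends on the 0 counts of WT rich and is no measure of size. None of the 6 calls held in every fit. Without 1 WT or KO starved library fewer genes were called, among the members and over all genes. Without KO rich replicate 1 the median difference was 0.07 over the members and -0.03 over all genes. Without KO rich replicate 2 these medians were 0.53 and 0.16.

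**Figure D4:**
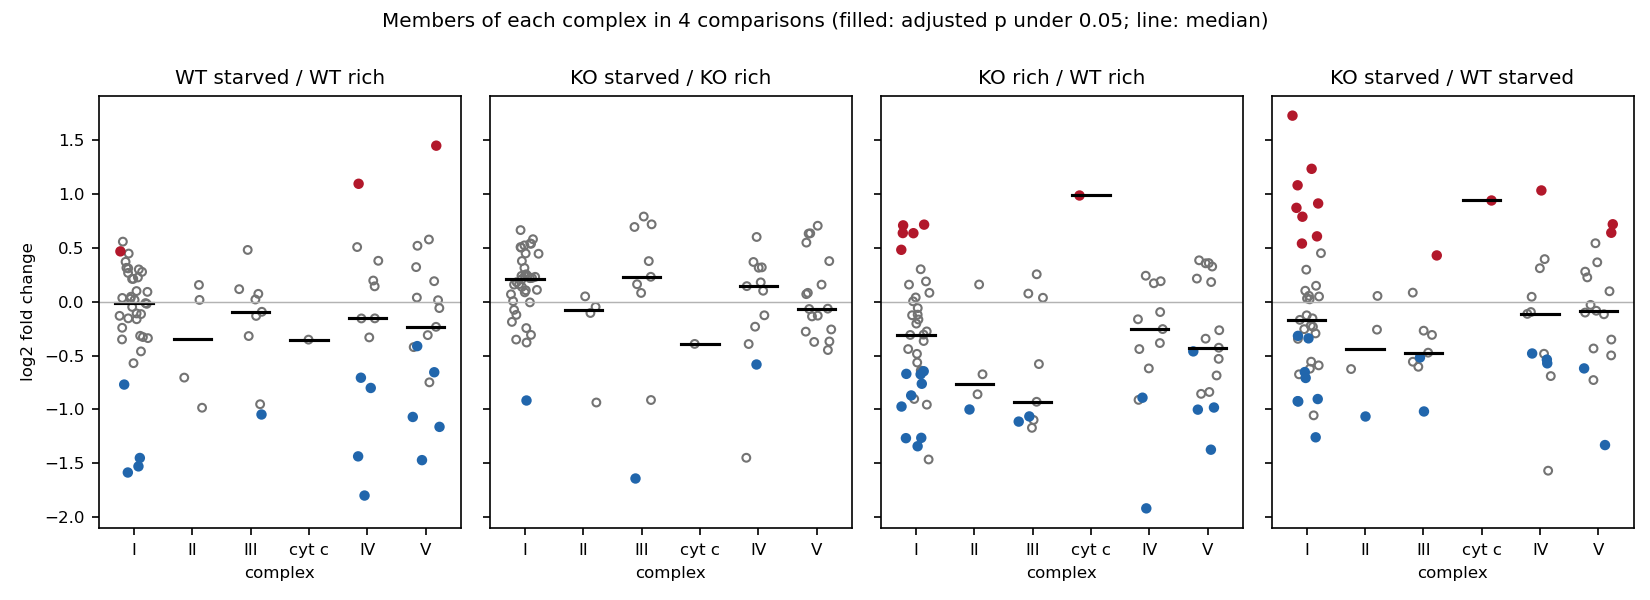
Log2 fold change of each member (y axis) by complex (x axis) in 4 comparisons. Filled points passed the test, in red where higher and blue where lower, open points did not, and lines are medians over all tested members of the complex. Cox6a2 is not drawn because of the 0 counts in WT rich. Sdha, the filled complex II point, is lower in KO cells in both media, and Cycs is higher.

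The next comparison was between genotypes in rich medium. In KO cells 7 members were higher and 18 lower than in WT cells, against 23.4% and 20.6% of all genes tested (44% in either direction). The median over the members was -0.38, and 0.00 over all genes. By complex, the lower members were 9 of complex I, 1 of complex II, 2 of complex III, 2 of complex IV and 4 of complex V. The higher ones were 5 of complex I, Cycs and Cox6a2.

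Sdha, the flavoprotein of succinate dehydrogenase that oxidises succinate, separated the genotypes with the smallest spread. It was at 144 and 145 CPM in KO rich and 284 and 294 CPM in WT rich libraries, a log2 fold change of -0.998 ± 0.11 (edgeR adjusted p = 0.000437). In starved cells it was at 141 and 139 CPM in KO and 296 and 289 CPM in WT libraries, a log2 fold change of -1.06 ± 0.11 (edgeR adjusted p = 0.000225). The 4 KO values lay within a few CPM of each other and far below the 4 WT values. Both calls held in all 18 alternatives. Sdhb, the iron-sulfur partner of Sdha, was at 95.8 and 70.4 CPM in KO rich and 76.4 and 72.0 CPM in WT rich libraries, which overlapped.

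Several Ndufs genes, which code for core and accessory subunits of complex I, were lower in KO cells in both media. Ndufs5 was at 11.1 and 8.11 CPM in KO rich and 23.3 and 24.7 CPM in WT rich libraries, a log2 fold change of -1.34 ± 0.19 (edgeR adjusted p = 0.00141). In starved cells it was at 9.98 and 10.4 CPM in KO and 24.6 and 24.3 CPM in WT libraries, a log2 fold change of -1.26 ± 0.18 (edgeR adjusted p = 0.00113). Ndufs3 was at 22.9 and 24.4 CPM in KO rich and 36.5 and 37.6 CPM in WT rich libraries, and Ndufs4, a subunit added late in assembly, at 10.1 and 13.5 CPM in KO rich and 28.7 and 28.6 CPM in WT rich libraries. In starved cells Ndufs3 was at 27.9 and 26.8 CPM in KO and 48.5 and 54.0 CPM in WT libraries, and Ndufs4 at 14.5 and 13.6 CPM in KO and 19.8 and 26.2 CPM in WT libraries. All 3 were called lower in both media, and none of their groups overlapped.

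The family did not move as one. Ndufs1, the largest core subunit, was at 154 and 128 CPM in KO rich and 97.1 and 105 CPM in WT rich libraries and was higher by 0.48 ± 0.13 on the log2 scale. Ndufs6 was lower in rich medium, with 14.3 and 12.3 CPM in KO and 20.4 and 21.9 CPM in WT libraries. Ndufs7 and Ndufs8 did not pass the test in either medium. Of the accessory subunits, Ndufb10 was lower in both media, at 42.4 and 48.7 CPM in KO rich and 80.2 and 74.6 CPM in WT rich libraries. Ndufa5, Ndufb5 and the X-linked Ndufa1 were higher in both. Of the other X-linked members, Cox7b was higher in starved KO cells, and Ndufb11 passed no test in the fit of all 8 libraries. The KO rich libraries had 21.9 and 70.6 CPM of Ndufb11. Its log2 fold change in rich medium was 0.29 without KO rich replicate 1 and -1.405 without KO rich replicate 2.

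In complex III, Uqcrfs1, the Rieske iron-sulfur protein, was at 15.5 and 28.1 CPM in KO rich and 46.5 and 46.0 CPM in WT rich libraries, a log2 fold change of -1.06 ± 0.26 (edgeR adjusted p = 0.0144). In starved cells it was at 24.4 and 25.1 CPM in KO and 47.0 and 53.3 CPM in WT libraries, a log2 fold change of -1.02 ± 0.26. Uqcr10 was lower in rich medium, and Uqcrc2, a core protein, was higher in starved medium, at 139 and 139 CPM in KO and 108 and 98.01 CPM in WT libraries. Cycs, the electron carrier, was at 328 and 201 CPM in KO rich and 134 and 132 CPM in WT rich libraries, a log2 fold change of 0.99 ± 0.22 (edgeR adjusted p = 0.00964). In starved cells it was at 200.5 and 202 CPM in KO and 102 and 107 CPM in WT libraries, a log2 fold change of 0.95 ± 0.22 (edgeR adjusted p = 0.00845). The KO values were above the WT values in both media, with the widest spread between the KO rich libraries.

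ATP synthase showed opposite differences at its catalytic head. Atp5b, the beta subunit, was at 618 and 960.3 CPM in KO rich and 1550.0 and 1569 CPM in WT rich libraries, a log2 fold change of -0.98 ± 0.20 (edgeR adjusted p = 0.00761). In starved cells it was at 1019 and 1032 CPM in KO and 1548 and 1603 CPM in WT libraries, a log2 fold change of -0.62 ± 0.20 (edgeR adjusted p = 0.0355). Atp5a1, the alpha subunit that alternates with beta in the head, was at 1146 and 1091 CPM in KO starved and 659 and 699 CPM in WT starved libraries, a log2 fold change of 0.72 ± 0.13 (edgeR adjusted p = 0.0033). In rich medium Atp5a1 was at 975 and 1137 CPM in KO and 811 and 873 CPM in WT libraries and did not pass the test. None of these pairs of groups overlapped.

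In starved medium the genotype comparison called the most members: 13 higher and 16 lower in KO cells, against 27.8% and 26.8% of all genes tested (54.6% in either direction). The median was -0.17 over the members and -0.02 over all genes. Complex I gave 8 higher and 8 lower, complex II 0 and 1, complex III 1 and 2, complex IV 1 and 3 and complex V 2 and 2, with Cycs higher. Several members that had fallen in starved WT cells were among the higher ones. Ndufb4 was at 35.4 and 36.3 CPM in KO starved and 10.7 and 10.9 CPM in WT starved libraries, a log2 fold change of 1.73 ± 0.25 (edgeR adjusted p = 0.00105). Ndufa4 was at 103 and 103 CPM in KO starved and 41.2 and 46.4 CPM in WT starved libraries, a log2 fold change of 1.24 ± 0.13 (edgeR adjusted p = 0.000225). Cox7b was at 51.9 and 56.2 CPM in KO starved and 25.9 and 26.9 CPM in WT starved libraries, a log2 fold change of 1.03 ± 0.12 (edgeR adjusted p = 0.000392). In none of the 3 did the groups overlap. Ndufb2, Ndufb3 and Atp5j, which had also fallen in starved WT cells, were higher by 1.08 ± 0.32, 0.87 ± 0.22 and 0.64 ± 0.12 on the log2 scale. This comparison and the WT starvation response share the WT starved libraries, so the values are not independent.

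The lower members in starved KO cells included Atp5sl, Ndufv3, Uqcrh, Cox7a2l, Cox7c and Cox4i1. Atp5sl was at 11.5 and 12.9 CPM in KO starved and 29.4 and 31.9 CPM in WT starved libraries, a log2 fold change of -1.33 ± 0.16 (edgeR adjusted p = 0.000489). Ndufv3 was at 21.2 and 20.4 CPM in KO starved and 39.3 and 39.5 CPM in WT starved libraries, a log2 fold change of -0.92 ± 0.13. That value lay between -1.04 and -0.41 over 18 alternatives, which include the other deposited transcript. Cox7a2l was at 146 and 142 CPM in KO starved and 197 and 221 CPM in WT starved libraries, and Cox4i1, the subunit at the regulatory face of complex IV, at 192 and 176 CPM in KO starved and 264 and 283 CPM in WT starved libraries. The smallest differences called were those of Ndufa10 and Ndufv2, lower by -0.32 ± 0.11 and -0.34 ± 0.12 on the log2 scale.

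Across the alternatives, calls in starved cells that held in all 18 included Ndufa4, Cox7b, Ndufb4, Atp5a1, Ndufa5, Atp5j and Ndufa1 on the higher side and Sdha, Atp5sl, Ndufv3, Ndufs5, Ndufs3 and Ndufb10 on the lower side. In rich medium they included Sdha and Ndufs5. Without KO rich replicate 1 the rich comparison gave 17 higher and 33 lower, against 35.1% and 32% of all genes, and its median was -0.13. The starved comparison, which holds no KO rich library, gave 23 and 38, against 40% and 41.2%. Without KO rich replicate 2 the median over the members was -0.69 in rich medium, against -0.11 over all genes. In starved medium it was -0.17, against -0.02. Leaving out 1 WT or KO starved library lowered the counts of calls, among the members and over all genes. The rich median was -0.36 and -0.41 without WT rich replicates 1 and 2. The starved median was -0.26 and -0.08 without WT starved replicates 1 and 2, and -0.17 and -0.21 without KO starved replicates 1 and 2. Without WT rich replicate 1 or 2 it was -0.17.

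Tissue-restricted isoforms of complex IV were at or near 0 counts. Cox4i2, the lung and hypoxia isoform, had at most 1 count in any library, and Cox6b2, Cox8b and Cox8c, forms of testis, heart and muscle, had 0 in all 8. Their counts of 0 allow up to 0.0623 CPM in KO starved, 0.101 CPM in KO rich, 0.0556 CPM in WT starved and 0.0605 CPM in WT rich libraries (3 counts over the group, counting error only). Ndufa4l2, a form induced by hypoxia, had 0 to 6 counts. Cox7b2, known from testis, had 2 and 6 counts in KO starved and 2 and 10 counts in KO rich libraries and 0 in all 4 WT libraries.

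Cox7a1, the heart and muscle form of subunit 7a, was low everywhere. It had 2 and 2 counts in KO starved, 2 and 5 counts in KO rich, 4 and 10 counts in WT starved and 20 and 25 counts in WT rich libraries. It was called lower in starved than in rich WT cells (log2 fold change -1.80 ± 0.46) and lower in KO than in WT rich cells (log2 fold change -1.92 ± 0.54), by edgeR adjusted p of 0.024 and 0.0252. Each call held in 9 of 17 alternatives. Cox7a1 and Cox6a2, both muscle forms, thus moved in opposite directions in starved WT cells. In rich medium Cox6a2 had 6 and 14 counts in KO and 0 in both WT libraries, at least 11.1-fold higher.

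Markers of other cell types differed between the genotypes in both directions. Tnnt2, of the muscle list, was at 185 to 328 CPM in KO and 0.325 to 1.49 CPM in WT libraries, while Tnni3 of that list was lower in KO libraries. The endothelial marker Cdh5 was at 126 to 240.3 CPM in KO and at most 0.0713 CPM in WT libraries. The 5 endothelial markers summed to 131.8 to 245.3 CPM in KO and 2.09 to 5.02 CPM in WT libraries, but Tie1 was at 0 in all 8 and Kdr at 0 to 0.0860 CPM in KO and 1.78 to 4.50 CPM in WT libraries. Of the fibroblast markers, Thy1 was at 123.6 to 180.4 CPM in KO and at most 0.214 CPM in WT libraries, and Dcn at 1172 to 1954 CPM in KO and at most 0.762 CPM in WT libraries. Col1a1 went the other way, with 635 to 1206 CPM in KO and 1400.0 to 2807 CPM in WT libraries, and the Vim and Col1a2 values of the genotypes overlapped. The 4 neural markers summed to 239 to 375 CPM in KO and 101 to 117 CPM in WT libraries, nearly all from Tubb3 and Map2, with Sox10 at 0 in all KO libraries. What these marker differences contribute to the genotype comparisons was not tested.

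**Figure D5:**
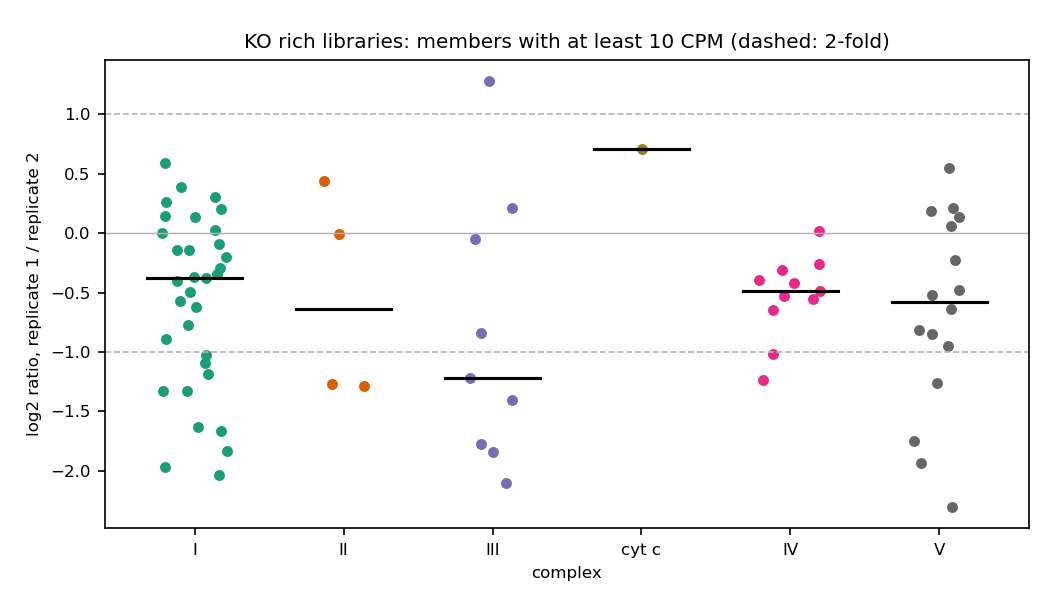
Log2 ratio of KO rich replicate 1 over replicate 2 (y axis) for the 74 members with at least 10 CPM, by complex (x axis). Lines are medians and dashed lines mark 2-fold. Most members lie below 0, Uqcrb lies above the upper line, and Atp5g2 and Uqcr11 are lowest.

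The 2 KO rich libraries differed more among these members than among genes at large. Of 74 members with at least 10 CPM, 24 were more than 2-fold apart (32.4%), 23 of them lower in replicate 1, against 17.3% of all such genes. In the other 3 groups 0 members were more than 2-fold apart. Atp5g2, a c-ring gene, was at 24.4 CPM in replicate 1 and 122 CPM in replicate 2. Uqcr11 was at 6.27 and 28.7 CPM, Ndufs7 at 6.64 and 28.8 CPM, and Cyc1, the cytochrome c1 of complex III, at 25.96 and 90.3 CPM. Uqcrb, a complex III subunit that binds coenzyme Q, went the other way with 92.4 and 37.8 CPM. Sdha, Cox7b, Ndufv2 and Uqcrc2 were close, with 144 and 145 CPM, 81.1 and 79.9 CPM, 98.7 and 98.5 CPM and 129 and 133 CPM.

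Genes that build or serve the chain were counted in 10 pathway lists. In starved WT cells, 7 of 13 genes for the expression of mitochondrial DNA rose and 1 fell, against 14.8% and 18% of all genes, with a median log2 fold change of 0.69 against 0 over all genes. Leaving out 1 library at a time gave 1 to 8 higher and 0 to 2 lower. Top1mt, the mitochondrial topoisomerase, was at 47.7 and 48.4 CPM in WT starved and 21.4 and 20.5 CPM in WT rich libraries, a log2 fold change of 1.197 ± 0.13 (edgeR adjusted p = 0.00107). Peo1, the Twinkle helicase, was at 65.0 and 67.8 CPM in WT starved and 38.8 and 36.6 CPM in WT rich libraries, a log2 fold change of 0.82 ± 0.12. Lrpprc, which stabilises mitochondrial mRNA, was the 1 that fell. In KO cells 2 of 13 rose, Top1mt and Polg2, and none fell, against 8.44% and 9.78% of all genes. The KO counts were 6 and 3 without KO rich replicate 1, and over all libraries left out in turn 0 to 6 and 0 to 4. The responses differed for Peo1 by -1.10 ± 0.18 and for Lrpprc by 0.92 ± 0.20 on the log2 scale.

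Of 12 genes for coenzyme Q synthesis, 4 rose and 0 fell in starved WT cells, against 14.8% and 18% of all genes. The counts were 8 and 1 without KO rich replicate 1, and over all libraries left out in turn 2 to 8 and 0 to 1. Adck3, a kinase-like protein now called COQ8A that supports the synthesis complex, was at 14.9 and 13.9 CPM in WT starved and 2.51 and 2.42 CPM in WT rich libraries, a log2 fold change of 2.54 ± 0.19 (edgeR adjusted p = 0.000313). In KO cells it was at 0.802 and 0.774 CPM in starved and 1.60 and 1.58 CPM in rich libraries, and its response differed by -3.54 ± 0.31 (edgeR adjusted p = 0.0013). That difference held in all 17 alternatives. Coq5, a methyltransferase of the pathway, rose by 1.11 ± 0.13 in starved WT cells. Coq2, the prenyltransferase that starts assembly of the molecule, was at 36.6 and 37.0 CPM in KO starved and 17.01 and 17.6 CPM in WT starved libraries.

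Of 9 transcriptional regulators, 0 rose and 2 fell in starved WT cells, against 14.8% and 18% of all genes, and 0 to 4 fell with 1 library left out. In rich medium 0 were higher and 4 lower in KO than in WT cells (Ppargc1a, Pprc1, Nrf1 and Hcfc1), against 23.4% and 20.6% of all genes, and 0 to 5 were lower with 1 library left out. Yy1 was at 50.5 and 56.9 CPM in WT starved and 98.03 and 104 CPM in WT rich libraries, a log2 fold change of -0.91 ± 0.18 (edgeR adjusted p = 0.00865). Ppargc1b, a coactivator of respiratory genes, was at 1.59 and 1.00 CPM in WT starved and 4.97 and 4.21 CPM in WT rich libraries, a log2 fold change of -1.82 ± 0.44 (edgeR adjusted p = 0.0192). In KO cells Ppargc1b was at 10.4 and 14.3 CPM in starved and 4.43 and 10.25 CPM in rich libraries, and it was higher in KO than in WT starved cells by 3.25 ± 0.44 on the log2 scale. Ppargc1a, its relative, was lower there, at 0.441 and 0.301 CPM in KO starved and 2.15 and 1.90 CPM in WT starved libraries. Nrf1, Gabpa and Esrra, whose family motifs were searched above, did not pass the test in either starvation comparison, and Nrf1 was at 25.7 and 51.6 CPM in KO rich and 75.7 and 74.2 CPM in WT rich libraries.

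Among the 21 assembly factors of complex IV, 4 rose and 2 fell in starved WT cells, and 2 rose and 1 fell in KO cells, against 14.8% and 18% of all genes in WT and 8.44% and 9.78% in KO cells. They were 7 and 4 in WT cells and 4 and 4 in KO cells without KO rich replicate 1. Over all libraries left out in turn they were 0 to 7 and 0 to 4 in WT cells and 0 to 9 and 0 to 4 in KO cells. Cox18, which inserts a mitochondrial subunit into the membrane, rose in both, at 23.0 and 23.7 CPM in KO starved against 8.86 and 12.5 CPM in KO rich libraries and at 23.7 and 24.0 CPM in WT starved against 10.3 and 10.9 CPM in WT rich libraries. Higd1a, an inner membrane protein tied to complex IV, fell in both, by 1.04 ± 0.17 in KO cells and 0.55 ± 0.17 in WT cells. For complex I assembly 2 of 13 rose in WT cells (Ecsit and Tmem126b) and 0 in KO cells, and for complex III assembly 1 of 6 (Bcs1l) and 0. The complex I assembly counts of genes that rose ran over 0 to 6 in WT and 0 to 5 in KO cells with 1 library left out, and those of complex III assembly over 0 to 3 and 0 to 2. Of the 4 complex II assembly factors, Sdhaf1 had an unadjusted p of 0.0391 in starved WT cells and none passed the adjusted test in the fit of all 8 libraries, but Sdhaf1 was called in 3 of 5 comparisons without KO rich replicate 1. Among 4 genes for the assembly of ATP synthase or its inhibitor, Atpaf2 rose and the inhibitor Atpif1 fell in WT cells. Tmem70 rose and Atpaf1 fell in KO cells. Of the 13 genes of the tricarboxylic acid cycle, Idh3g rose and Fh1 fell in WT cells. Fh1, fumarase, acts on the product of complex II and was at 83.5 and 83.2 CPM in KO starved and 33.6 and 39.0 CPM in WT starved libraries, a log2 fold change of 1.198 ± 0.13 (edgeR adjusted p = 0.000272). Of 6 tested carriers, Slc25a3 and Slc25a4 rose in starved WT cells, and Slc25a4, the ADP/ATP carrier, was at 343 and 342 CPM in KO starved and 696 and 755 CPM in WT starved libraries.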

How the data were processed

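RNA-seq libraries of mouse embryonic fibroblasts (8, in 4 groups of 2) were analysed from a deposited table of read counts per transcript. Per the submitters' processing notes, TopHat2 2.0.9, bedtools and build mm9 were used; no label or header says how reads were counted, or whether strand was used. The 4 ChIP libraries were not analysed here. Of the 31055 transcripts, the row with the highest total was kept for each of 23366 genes. Counts were filtered with filterByExpr, scaled by TMM and fitted with edgeR 4.0.16's quasi-likelihood test (R 4.3.3) over all 8 libraries, with Benjamini-Hochberg adjustment over 13882 genes and a threshold of 0.05. The common biological coefficient of variation was 18.5%. CPM are counts divided by TMM-scaled library size. The genotype difference in response was an interaction term. Alternatives were other scalings and filters, DESeq2 1.42.0, limma 3.58.1 with voom, with and without library quality weights, a replicate block, other transcript rows, the 4 libraries compared alone, and leaving out each library. Leaving out each library for the pathway lists, and the signs of small changes, were added after seeing the data. The scripts were tested on simulated counts. Motif letters were searched in RefSeq promoter windows.

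The members, lists and tests were chosen with earlier results of these data known. Named per comparison were the 2 members with the smallest p and the member with the largest fold change of each of complexes I, III, IV and V, all complex II members, Cyc1, Cycs, Cox7a2l and the isoform pairs, and from each pathway list the 2 genes with the smallest p. Any other member or list gene, including further called members, was named after its values were seen. Intervals and floors for counts of 0 cover counting error only. Values of some members counted are not reported here.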

Additional observations from a re-analysis of the deposited data

Results flagged for a closer look

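The starvation response differed between KO and WT cells for 6 members by the interaction test (edgeR adjusted p under 0.05), as log2 fold change in KO cells minus that in WT cells. Ndufb4 differed by 1.69, with a response of 0.24 in KO and -1.45 in WT cells. Ndufb3 differed by 1.18, with -0.35 in KO and -1.53 in WT cells, and Cox7b by 0.86, with -0.57 in KO and -1.44 in WT cells. Atp5sl differed by -1.51, with -0.06 in KO and 1.45 in WT cells, and Ndufv3 by -1.23, with -0.91 in KO and 0.31 in WT cells. The Ndufv3 difference lay between -1.29 and -0.62 over 17 alternatives. For Cox6a2 the fitted difference was -6.28, a value that depends on the prior count because both WT rich libraries had 0 counts.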

How the results depend on the processing

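No change that passed the test, and no named change of at least 0.8 (log2), reversed under any of 18 alternatives. Of 65 smaller named changes of members that did not pass it, 19 did in at least 1 alternative. In KO starvation Atp5g2 was at 0.71 with all libraries and -0.02 without KO rich replicate 1, and Sdhc at -0.10 with all libraries and 0.70 without KO rich replicate 2. With quality weights in limma-voom, members higher and lower were 21 and 31 for WT starvation, 0 higher for KO starvation, 4 and 10 for KO against WT in rich medium and 21 and 37 in starved medium. With only the 4 libraries compared they were 23 and 33 for WT starvation, 0 and 0 for KO starvation, 1 and 5 in rich medium and 23 and 38 in starved medium. The difference of responses needs all 4 groups and has no such fit. That KO count of 0 (edgeR) stood beside 1 member higher and 3 lower at an unadjusted p under 0.05. Over all 13882 genes the quality weights called 4693 and 4700 for WT starvation and 603 higher for KO starvation. They called 2319 and 1429 genes in rich medium and 5510 and 5661 in starved medium. Fits of only the 4 libraries called 4740 and 4642, 0 and 0, 1714 and 1470, and 5563 and 5699 genes in the same order. The stricter filter left 0 higher for KO starvation, and DESeq2 gave 5 lower there and 5 higher for the difference of responses. Over all genes these 3 counts were 1120, 2019 and 1569. Scaled by total counts, the KO to WT ratio of summed levels in starved cells was 0.802 for complex I, 0.576 for II, 0.767 for III, 1.78 for cytochrome c, 0.768 for IV and 0.879 for V. That scaling put the median of all genes for KO against WT in starved cells at -0.14, against -0.02 with TMM. Leaving out 1 library gave 2 to 23 higher and 3 to 34 lower for WT starvation, 0 to 43 and 1 to 18 for KO starvation, 2 to 17 and 8 to 51 in rich medium, 7 to 23 and 7 to 38 in starved medium, and 0 to 46 and 0 to 16 for the difference. The cause was not tested.

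Replicate numbers did not pair the libraries: correlations of deviations ran from -0.03 to 0.15. With the replicate block, members higher and lower were 3 and 13 for WT starvation, 1 and 3 for KO starvation, 7 and 19 in rich medium, 13 and 13 in starved medium and 3 and 3 for the difference. Over all genes the block gave 1835 and 2288, 1010 and 1101, 3044 and 2758, 3767 and 3594, and 882 and 608 in that order. Depth limits low genes most in KO rich replicate 1, where 3 counts are 0.369 CPM, against 0.104 CPM in WT starved replicate 2.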
